A study of Mus musculus with 24 samples.

Results

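Endothelial cells and microglia taken from control brain slices were compared with each other, to describe the baseline state of each cell type before any exosome was given. The comparison used 5 libraries, 3 of endothelial cells and 2 of microglia, out of 21 libraries in the deposited tables and 24 labelled samples. They were chosen by their labels: all of the 21 libraries that came from slices given phosphate-buffered saline (PBS). Microglial PBS sample C was labelled but was not among the 21 libraries. The other 16 libraries came from slices given PKH67-dyed exosomes called WT, KO1 or KO2 at 5 µg per slice, and served only as a second look at the calls. All slices, PBS slices included, were treated for 2 days, freed of a ring of tissue named PC in the labels, and digested with Dispase and collagenase at 37 °C. Myelin was removed with beads and dead cells with DAPI. The gate for endothelial cells took CD31 without CD45. The gate for microglia took CD45 together with little CD11b and CD49d. Mouse strain, age and sex are not given in the sources used here. The labels describe all sorted cells as exosome-positive, also those of PBS slices, so the gate used for the PBS libraries is unclear. What the letter at the end of each library's name stands for is not stated, be it separate animals, cultures or sorts. The spread between libraries may therefore be technical.

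Brain endothelial cells line the vessels of the brain and form the blood-brain barrier: tight junctions close the gaps between them, carriers let chosen nutrients through, and pumps send drugs back into the blood. Wnt signals from surrounding brain cells keep that state. Microglia are the macrophages that live in the brain tissue. They depend on the growth factor receptor Csf1r and on the transcription factor PU.1 (gene Spi1), and in the healthy brain they carry sensing receptors such as P2ry12 and Cx3cr1, which are known to be lost when the cells are activated or cultured.

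The deposited tables were normalised separately for the 2 cell types, so their values cannot be subtracted. Each gene was instead given its percentile rank within its library, from 0 (lowest) to 100 (highest), over the 13794 genes above the floor (the value of a gene without reads) in at least 1 of the 5 libraries. Genes without reads share 1 low rank per library, 6.7 to 9.0 in endothelial libraries and 11.5 to 12.6 in microglial ones. Levels are given as recovered counts per 1e6 counts of the library (CPM), which are not corrected for transcript length and are used only to compare 1 gene between libraries. A gene was called higher in a cell type when all its libraries of that type ranked above all of the other type, when it was above the floor in all of them, and when the mean ranks lay at least 25 points apart. No test was run between the tables. The depth was estimated at 18.3 to 29.3 × 1e6 assigned reads per endothelial library and 28.8 and 33.5 × 1e6 per microglial library, and 11305 to 11952 and 10324 to 10612 genes lay above the floor.

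Of the 13794 ranked genes, 1064 (7.71%) were called higher in endothelial cells and 828 (6.0%) in microglia, and 11902 were called in neither direction. Libraries of the same cell type ranked the genes alike, with Spearman's rho of 0.892 to 0.945 over 4 pairs, against 0.701 to 0.725 over the 6 pairs of different types. These are correlations across genes, which are not independent replicates. In all 5 libraries 8484 genes were above the floor, and 5400 of them (63.7%) had mean ranks within 10 points of each other. Many calls were on or off: 451 of the 1064 endothelial genes were listed at 0 in both microglial libraries, and 212 of the 828 microglial genes at 0 in all 3 endothelial libraries. The plot of mean ranks shows these genes as lines along its edges.

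**Figure D1:**
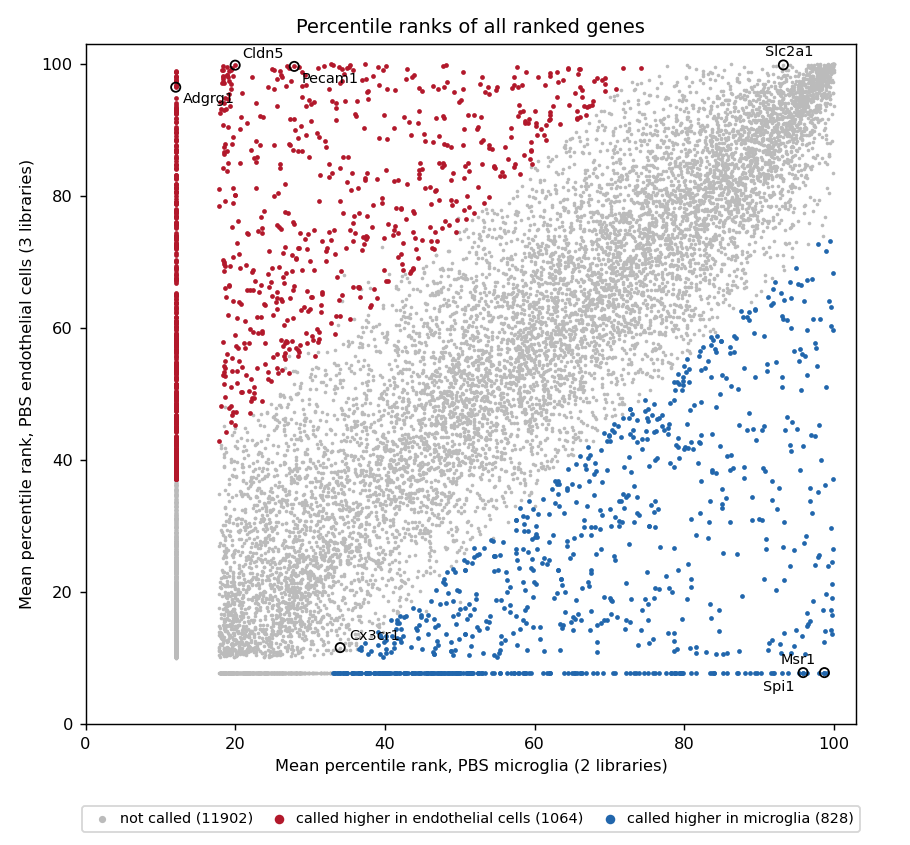
Mean percentile rank of each of 13794 genes in PBS endothelial cells (vertical axis, 3 libraries) against PBS microglia (horizontal axis, 2 libraries), with called genes in colour. Cldn5, Pecam1 and Adgrg1 lie at the top left, Spi1 and Msr1 at the bottom right, and Cx3cr1 lies among uncalled genes near the bottom left.

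The endothelial label was borne out by its markers. Pecam1 encodes CD31, the sorting antigen of the gate (chromosome 11, 106654213 to 106715281, GRCm38.p6). It stood at 1519.7, 1891 and 1614 CPM in endothelial libraries A, B and C and at 0 and 6.1 CPM in microglial libraries A and B. Cldn5, the main claudin of brain tight junctions (chromosome 16, 18776847 to 18778262), stood at 2350.0, 2937 and 2192 CPM against 0 and 0.149 CPM. Both genes ranked above 99 in all endothelial libraries, and the groups were far apart.

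The microglial label was borne out by general macrophage genes but not by the receptors that usually define microglia. P2ry12 was listed at 0 in both PBS microglial libraries, where 3 reads would have been 0.104 and 0.0897 CPM, and it was above the floor in 1 of the 9 exosome microglial libraries, at 0.341 CPM. Cx3cr1, the fractalkine receptor (chromosome 9, 120048683 to 120068296), stood at 1.92 and 1.1 CPM in microglia and 0.109, 0 and 0 CPM in endothelial cells. It ranked 35.3 and 32.7 in microglia and was not called, since the mean ranks were 22.4 points apart. In exosome microglia Cx3cr1 ranged from 0 to 5.66 CPM. By contrast Spi1 (chromosome 2, 91082374 to 91115759) stood at 294 and 277 CPM in microglia and at 0 in all 3 endothelial libraries. Ptprc, which encodes CD45, stood at 78.8 and 54.2 CPM and Itgam, which encodes CD11b, at 70 and 48.5 CPM. In endothelial cells Ptprc was listed at 0 and Itgam stood at 0.218, 0.371 and 0.171 CPM. Itga4, which encodes CD49d, was low in both types, at 2.94, 1.43 and 8.73 CPM in endothelial cells and 1.96 and 0.622 CPM in microglia. Because the sort used CD31, CD45 and CD11b, the differences of their genes check the sort and are not findings. The list counts below still include Pecam1 (junctions and surface), Itgam (complement and phagocytosis) and Ptprc (leukocyte signalling).

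**Figure D2:**
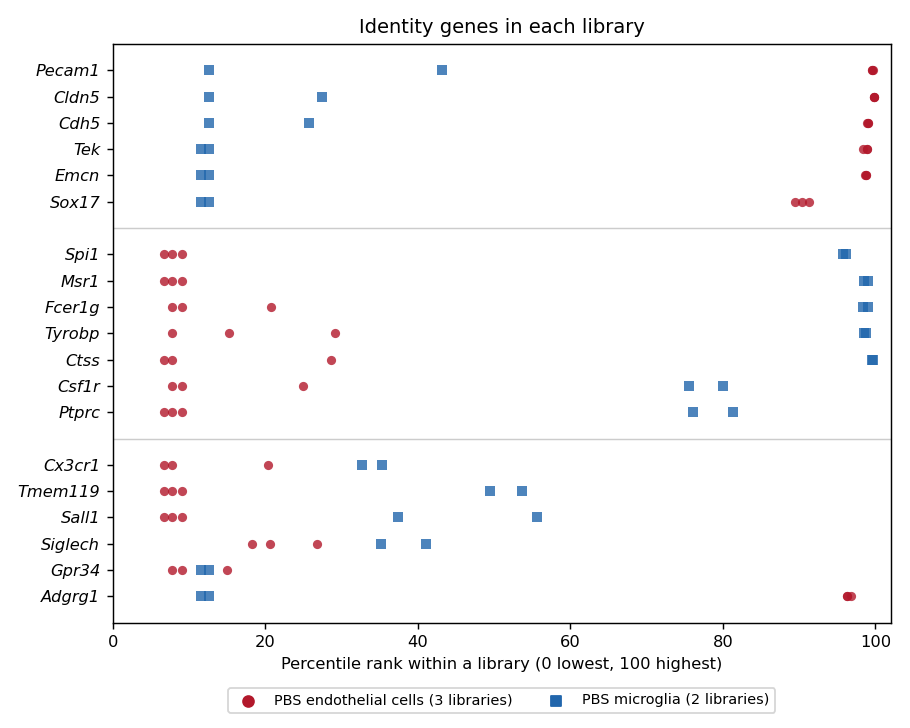
Percentile rank (horizontal axis, 0 to 100) of endothelial genes (upper block), general macrophage genes (middle) and homeostatic microglial genes (lower) in each of the 3 endothelial (circles) and 2 microglial libraries (squares). Endothelial and macrophage genes separate the types widely, while Cx3cr1, Siglech and Gpr34 rank low in all 5 libraries and Adgrg1 ranks above 96 in endothelial libraries only.

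Markers of other cell types were low, with a few exceptions. Summed over their lists, neuronal, monocyte and neutrophil, and lymphocyte markers reached at most 5.44 CPM in any of the 5 libraries. Astrocyte markers summed to 1491, 758 and 955 CPM in endothelial cells, where 1 gene, Gja1, made up 1448, 721 and 933 CPM while Gfap stood at 4.32, 0.372 and 0 CPM, Aqp4 at 0.0544, 0.796 and 0 CPM and Aldh1l1 at 0. Pericyte and smooth muscle markers summed to 79.2, 174 and 152 CPM in endothelial libraries, led by Rgs5 (42.7, 106 and 101 CPM), and were listed at 0 in microglial library B. Fibroblast and meningeal markers summed to 184, 178 and 242 CPM in endothelial libraries and to 3.54 and 5.38 CPM in microglia, and 3 of the 8 ranked were called in endothelial cells. They were led by Foxc1 (164, 147 and 186 CPM), with Dcn at 16.8, 22.4 and 22.2 CPM, Lum at 3.72, 5.04 and 29.5 CPM and both listed at 0 in microglia. Choroid plexus markers varied within each type, at 139, 283 and 35.9 CPM in endothelial cells and 335 and 23.6 CPM in microglia. In microglia the astrocyte glutamate carrier Slc1a3 stood at 4.8 and 18.4 CPM, against 0, 0.425 and 0 CPM in endothelial cells, and was called. The oligodendrocyte list summed to 147 and 239 CPM in microglia, of which the myelin gene Mbp gave 139 and 202 CPM. Border-associated macrophage markers summed to 86.1 and 54.4 CPM in microglia, led by Pf4 (66.9 and 47.5 CPM), while Mrc1 stood at 6.8 and 0 CPM. The part of these cells or of their RNA in the calls was not tested, and fewer cells of a type and less RNA per cell cannot be told apart in sorted bulk samples.

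Junction and surface genes had the highest share of endothelial calls among the lists plotted. Of 25 genes, 22 were called higher in endothelial cells and none in microglia, with a median difference of 69.5 points, against a median over all ranked genes of 0.847 points in favour of microglia. The angiopoietin receptor Tek stood at 853, 591 and 796 CPM and the surface sialomucin Emcn at 749.6, 679.7 and 720.0 CPM, both listed at 0 in both microglial libraries. Against 3 reads per library, their means were at least 7698-fold and 7387-fold higher. Cdh5, the cadherin of endothelial junctions, stood at 810.0, 820.4 and 855 CPM against 0 and 0.06 CPM, and the guidance receptor Robo4 at 473, 390.3 and 446 CPM against 0. The VEGF receptor Flt1 was likewise listed at 0 in microglia, whereas Kdr, the main signalling receptor for VEGF, stood at 836, 582 and 814 CPM against 13.6 and 10.62 CPM. The 3 genes not called were Tjp1 and F11r, which ranked above 67 in all 5 libraries, and Ecscr, at 0, 4.23 and 4.35 CPM in endothelial cells.

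Barrier carriers divided into genes that marked endothelial cells and genes that microglia shared. Of 24 genes, 7 were called higher in endothelial cells, none in microglia, and the median difference was 13.3 points. Slc1a1, a glutamate carrier, stood at 549, 267 and 539 CPM against 0.0347 and 0 CPM. The drug pump Abcb1a stood at 217, 190.0 and 225 CPM against 0.0348 and 0 CPM, and the thyroid hormone carrier Slco1c1 at 81.6, 61.4 and 56.3 CPM against 0. Mfsd2a, the lipid carrier that restrains vesicle traffic at the barrier, was low but separate, at 41.3, 20.8 and 22.7 CPM against 5.48 and 0 CPM. Ranks separate genes poorly where both types are near the top: Slc2a1, the glucose carrier of the barrier, stood at 2841, 2543 and 2519 CPM against 224 and 166 CPM, 13.5-fold higher, yet its mean ranks differed by only 6.57 points. Slco1a4 and Slc22a8, both known carriers of the brain endothelium, stood at 0, 1.54 and 0 CPM and 0, 0.159 and 0.819 CPM in endothelial cells.

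Because ranks are crowded at the top, calls by size were counted beside calls by rank. By this second rule, means of log2(CPM + 1) at least 2 apart without overlap, 1557 genes (11.3%) were higher in endothelial cells and 901 (6.53%) in microglia. The rule added 493 endothelial and 130 microglial genes to the calls by rank, and all 1064 endothelial and 771 of the 828 microglial calls by rank were among its calls. In the barrier list it called 12 of 24, adding Slc2a1, Slco2b1, Slc7a5, Slc40a1 and Slc30a1. The median log2 difference over the 8484 genes above the floor in all 5 libraries was 0.01, so the CPM scales of both types were centred alike.

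Wnt receptors and targets were called in endothelial cells in 10 of 16 cases and in microglia in none. The receptor Fzd4 stood at 149.6, 108 and 129.9 CPM against 6.6 and 0 CPM, and Fzd6 at 85.7, 58 and 59.3 CPM against 0. The transcription factor Lef1 stood at 54.9, 34.6 and 44.6 CPM and its relative Tcf7 at 37.8, 30.2 and 39 CPM, and the target Axin2 at 16.7, 9.61 and 10.9 CPM, all listed at 0 in microglia. Apcdd1, a Wnt inhibitor and barrier target gene, stood at 74.4, 57 and 97.8 CPM against 0.104 and 0 CPM. Ctnnb1, which encodes beta-catenin, ranked above 97 in all 5 libraries.

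The vascular basement membrane list gave 11 of 15 genes called in endothelial cells, with a median of 58.0 points. The collagen IV chains stood at 3105, 2582 and 3853 CPM (Col4a1) and 2080.1, 1692 and 2497 CPM (Col4a2) in endothelial cells. In microglia they stood at 6.64 and 0.149 CPM and 0 and 0.0299 CPM. Sparc, a collagen-binding protein, stood at 4025, 4180.2 and 6353 CPM against 128 and 86 CPM and was called by size but not by rank. Hspg2, the perlecan gene, was listed at 0 in endothelial libraries A and B and stood at 5.45 CPM in C. Of the caveolae list 7 of 10 genes were called, with Cav1 at 167, 82.9 and 133 CPM and Cav2 at 214, 240.5 and 149.8 CPM against 0 in both microglial libraries. Plvap, a fenestral protein that is usually scarce in barrier vessels, stood at 51.2, 57.1 and 13.9 CPM.

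Adhesion molecules for leukocytes were called in 6 of 10 cases, all in endothelial cells. Icam1 stood at 1019, 495 and 598 CPM against 22.8 and 44.1 CPM. Selp and Sele, the selectins that catch leukocytes on inflamed vessels, stood at 57.7, 183 and 127 CPM and 27.2, 9.67 and 23.1 CPM and were listed at 0 in microglia. Vcam1 was uneven within the type, at 116, 36.1 and 32.3 CPM.

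Transcription factors were called only on the side of their own list. Of 22 endothelial factors 15 were called in endothelial cells and none in microglia, and of 20 microglial and macrophage factors 11 were called in microglia and none in endothelial cells. The SOX factors Sox17, Sox18 and Sox7 stood at 169.9, 148 and 159 CPM, 285, 331 and 278 CPM and 621, 479 and 655 CPM, against 0.351 CPM or less in microglia. The forkhead factors Foxf2 and Foxq1, both known in brain endothelium, stood at 268, 176 and 272 CPM and 212, 134 and 227 CPM against 0. On the microglial side Runx1 stood at 108 and 111 CPM, against 0, 9.52 and 0.622 CPM in endothelial cells. Sall1, a factor that sets microglia apart from other macrophages, stood at 18.5 and 2.99 CPM and was listed at 0 in endothelial cells. Irf8, used as a microglial factor, did not separate the types, at 136, 149 and 132 CPM in endothelial cells and 165 and 91.4 CPM in microglia. Mef2c was listed at 0 in both microglial libraries and stood at 1.69, 0.9 and 0.749 CPM in endothelial cells.

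PU.1 belongs to the ETS family, as do the endothelial factors Erg, Fli1 and Ets1, and ETS proteins bind a GGAA core. The 120 bases before a start are shown for 3 microglial genes and 1 endothelial gene whose stretch holds CAGGAAG or GAGGAAG on either strand. They are also shown for 3 identity markers, Cldn5, Cx3cr1 and P2ry12, that hold neither of these runs of letters there. Even so, P2ry12 holds AGGAAG there and Cx3cr1 holds ACAGGAA, which contain GGAA and are left in small letters. Sequences are from RefSeq (GRCm38.p6), written in the direction of the gene, with the match in capitals, and the genes were chosen after their values were seen.
Robo4 (chr9:37401852-37401971, plus strand): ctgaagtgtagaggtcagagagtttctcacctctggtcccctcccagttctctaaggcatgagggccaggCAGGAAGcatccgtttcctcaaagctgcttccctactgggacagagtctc
Fcer1g (chr1:171234350-171234469, minus strand): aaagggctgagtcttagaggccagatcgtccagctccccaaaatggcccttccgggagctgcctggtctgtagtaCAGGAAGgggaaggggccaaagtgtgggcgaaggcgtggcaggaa
Il1a (chr2:129309973-129310092, minus strand): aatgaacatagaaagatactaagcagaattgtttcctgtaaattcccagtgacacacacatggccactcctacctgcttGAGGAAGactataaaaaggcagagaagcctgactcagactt
Lyz2 (chr10:117282273-117282392, minus strand): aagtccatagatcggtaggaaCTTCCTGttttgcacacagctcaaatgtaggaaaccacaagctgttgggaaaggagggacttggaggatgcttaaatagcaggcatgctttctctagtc
Cldn5 (chr16:18776727-18776846, plus strand): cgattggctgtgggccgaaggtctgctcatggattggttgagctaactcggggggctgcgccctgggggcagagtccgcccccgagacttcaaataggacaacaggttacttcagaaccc
Cx3cr1 (chr9:120068297-120068416, minus strand): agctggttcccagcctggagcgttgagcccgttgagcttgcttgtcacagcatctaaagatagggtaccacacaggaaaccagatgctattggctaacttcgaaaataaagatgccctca
P2ry12 (chr3:59262986-59263105, minus strand): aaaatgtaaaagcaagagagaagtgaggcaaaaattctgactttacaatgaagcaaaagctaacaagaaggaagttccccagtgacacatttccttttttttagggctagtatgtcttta
The match is CAGGAAG in Robo4, Fcer1g and Lyz2 and GAGGAAG in Il1a. It begins 50 bases before the start in Robo4, 45 in Fcer1g, 41 in Il1a and 99 in Lyz2. In Lyz2 it lies on the opposite strand and so reads CTTCCTG here. The starts used for Robo4 and Il1a lie inside the spans of these genes, 37401902 to 37414023 and 129299609 to 129310186. Their matches lie inside the spans too. Both motifs contain AGGAAG, which occurred in 41.7% of windows of microglial calls and 36.7% of windows of endothelial calls, against 33.7% of windows of ranked genes and 35.4% of all windows. The windows of RefSeq run from 250 bases before to 50 after each start, and 11054 of the 13794 ranked genes had at least 1, among them 776 endothelial and 653 microglial calls. GAGGAAG occurred on either strand in 17.3% of 860 windows of microglial calls and 14.9% of 1062 windows of endothelial calls, against 13.5% of 13991 windows of ranked genes and 13.6% of all 32851 windows. CAGGAAG occurred in 16.9% and 13.7%, against 12.7% of ranked and 13.3% of all windows. The longer GAGGAAGT, which contains the first motif, occurred in 6.51% of microglial and 3.01% of endothelial windows, against 3.08% of ranked windows and 3.20% of all. CCGGAAG, another ETS motif, occurred in 10% of microglial and 6.21% of endothelial windows, against 15.9% of ranked and 8.86% of all windows. The SOX motif CCATTGT occurred in 1.63% and 2.35%, against 2.17% and 3.66%. These are 6 of 14 motifs counted, a match is a run of letters and not a binding site, and windows of 1 gene can overlap.

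Homeostatic microglial genes gave a mixed picture. Of 27 genes, 4 were at the floor in all 5 libraries (P2ry12, P2ry13, Slc2a5 and Upk1b) and 23 could be ranked. Of these 12 were called in microglia, 1 in endothelial cells and 10 in neither. Csf1r stood at 73.7 and 52.2 CPM in microglia against 0, 1.01 and 0 CPM in endothelial cells, and Tmem119 at 13.3 ± 4.04 CPM (mean ± SD, n = 2) against 0. Siglech stood at 1.79 and 4.81 CPM and Gpr34 was listed at 0 in both PBS microglial libraries. Across the 9 exosome microglial libraries Tmem119 ranged from 0 to 7.08 CPM, while Siglech ranged from 9.85 to 36.2 CPM, above both PBS microglial libraries. Adgrg1, an adhesion receptor on the homeostatic list, went the other way, at 354, 342 and 382 CPM in endothelial cells and listed at 0 in PBS microglia. Slc2a5, the fructose carrier, was listed at 0 in all 21 libraries, as were 5421 of the 20555 genes of the tables. Of genes that all cells use, Actb, Eef1a1, Gapdh and Hprt were above the floor in all 21.

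**Figure D3:**
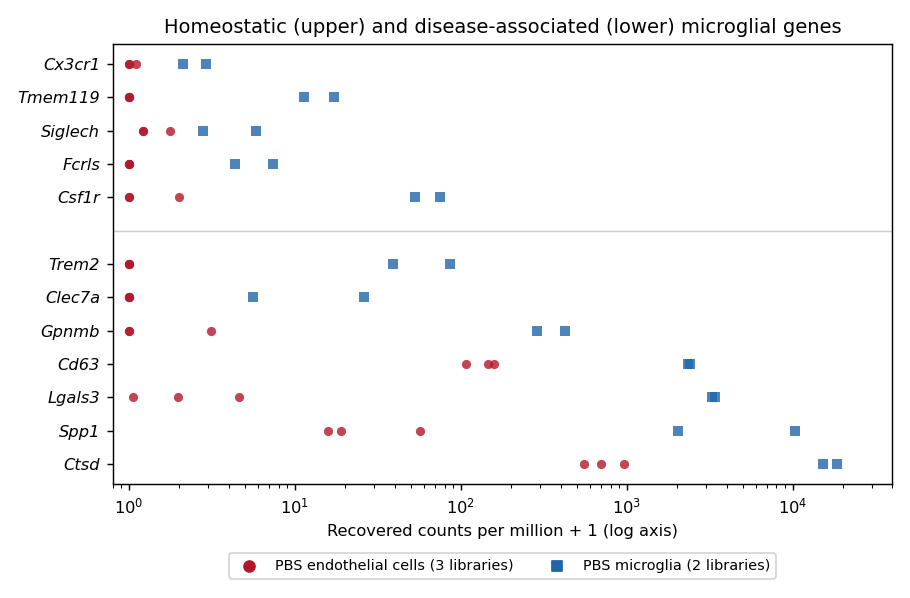
Recovered CPM plus 1 (horizontal log axis) of homeostatic microglial genes (upper block) and disease-associated genes (lower block) in each endothelial (circles) and microglial library (squares). In microglia Cx3cr1, Siglech and Fcrls lie below 10 while Lgals3, Spp1 and Ctsd lie at 2039 or more, and every gene shown is higher in both microglial libraries than in the 3 endothelial ones.

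Genes of the disease-associated microglial state lay on the microglial side. Of 20 genes 11 were called in microglia by rank and 16 by size, against 6.0% and 6.53% of all ranked genes. None was called in endothelial cells. Spp1, which encodes osteopontin, stood at 10366 and 2039 CPM in microglial libraries A and B, which differed widely from each other, and at 18.1, 55.6 and 14.9 CPM in endothelial cells. Lgals3, the gene of galectin-3, stood at 3387 and 3252 CPM against 0.0555, 3.59 and 0.967 CPM. Gpnmb, a glycoprotein of phagocytic cells, stood at 288 and 424 CPM against 0, 0 and 2.12 CPM. Trem2, the lipid receptor on which this state depends, stood at 85.1 and 38.2 CPM, and its adaptor Tyrobp at 596 and 538 CPM. Itgax and Clec7a were lower, at 11.6 and 7.05 CPM and 4.61 and 25.2 CPM, and Axl was listed at 0 in both microglial libraries. Apoe, a lipid carrier, stood at 274 and 378 CPM in microglia and 104, 70.5 and 109 CPM in endothelial cells. Its ranks did not overlap, but their means lay 13.7 points apart, so it was not called. The ferritin genes took the most counts in microglia: Ftl1 stood at 46398 and 46848 CPM against 6209.8, 6682 and 7139 CPM, and Fth1 at 42597 and 40931 CPM against 7007, 10320.0 and 9787 CPM. The 10 most abundant genes held 17.05 and 17.99% of microglial counts and 7.86 to 8.34% of endothelial counts.

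Lysosomal genes were separated far more often by size than by rank. By rank 4 of 20 were called in microglia, and by size 15 of 20, against 6.0% and 6.53% of all ranked genes. Ctss, a cathepsin of antigen-presenting cells, stood at 1282 and 2034 CPM against 1.11, 0 and 0 CPM. Ctsd and Ctsb, the general cathepsins, stood at 18528 and 15168 CPM and 10463 and 10145 CPM in microglia, 22.8-fold and 12-fold above endothelial cells, where they ranked above 98 as well. Cst3, a secreted cathepsin inhibitor among the 10 highest of microglia, stood at 8772 and 13449 CPM against 247, 259 and 177 CPM, 48.8-fold higher.

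Complement, Fc receptor and phagocytosis genes were mostly called in microglia, with 18 of 23 called in microglia and a median of 71.2 points. The scavenger receptor Msr1 (chromosome 8, 39543232 to 39642750) stood at 687 and 547 CPM and was listed at 0 in all 3 endothelial libraries, so its mean was at least 4354-fold higher. Fcer1g, the signalling chain of Fc receptors, stood at 693 and 531 CPM against 0, 0.433 and 0 CPM. The complement genes C1qa, C1qb and C1qc stood at 63.8 and 69.8 CPM, 148 and 168 CPM and 88.5 and 87.5 CPM in microglia and were listed at 0 in endothelial cells but for 0.375 CPM of C1qb in library B. The anaphylatoxin receptors C3ar1 and C5ar1 stood at 814 and 602 CPM and 327 and 97.3 CPM. Cd68, a lysosomal glycoprotein of phagocytes, stood at 2731 and 2789 CPM against 58.4, 27.1 and 46.7 CPM. The efferocytosis receptor Mertk and the scavenger receptor Stab1 were instead higher ranked in all 3 endothelial libraries without being called by rank: Mertk stood at 109, 81 and 109 CPM against 21.6 and 53.6 CPM, and Stab1 at 371, 328 and 483 CPM against 101 and 43.6 CPM. The Fc receptor genes Fcgr1, Fcgr2b and Fcgr3 are related in sequence, and their reads may be shared among them.

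Leukocyte signalling genes gave 19 of 24 calls in microglia and none in endothelial cells. Blnk, an adaptor below antigen and Fc receptors, stood at 257 and 311 CPM and was listed at 0 in endothelial cells. The exchange factor Vav1 stood at 449 and 310.3 CPM against 0.109, 0.106 and 0.137 CPM, and the GTPase Rac2 at 149 and 150.2 CPM against 1.42, 0.637 and 1.26 CPM. Inpp5d, the SHIP1 phosphatase usually seen as a leukocyte gene, ran the other way, at 469.6, 365 and 464 CPM in endothelial cells against 66.2 and 86.4 CPM, 5.68-fold higher, and was called by size only. Of 23 ranked pattern recognition and inflammasome genes 13 were called in microglia, among them Tlr7 (197 and 71.3 CPM), Tlr2 (221 and 171 CPM) and Casp1 (83.9 and 88.1 CPM). Tlr3, a sensor of double-stranded RNA, was called in endothelial cells, at 33.8, 14.2 and 26.6 CPM against 0. Cd14, the lipopolysaccharide co-receptor, was high in both, at 4222 and 2753 CPM in microglia and 364, 446 and 471 CPM in endothelial cells. Among the highest microglial genes listed at 0 in all 3 endothelial libraries were also the metal carrier Slc11a1 (677 and 884 CPM), the costimulatory ligand Cd86 (386 and 577 CPM), lysozyme Lyz2 (317 and 306 CPM) and the pore protein Mpeg1 (264 and 254 CPM).

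**Figure D4:**
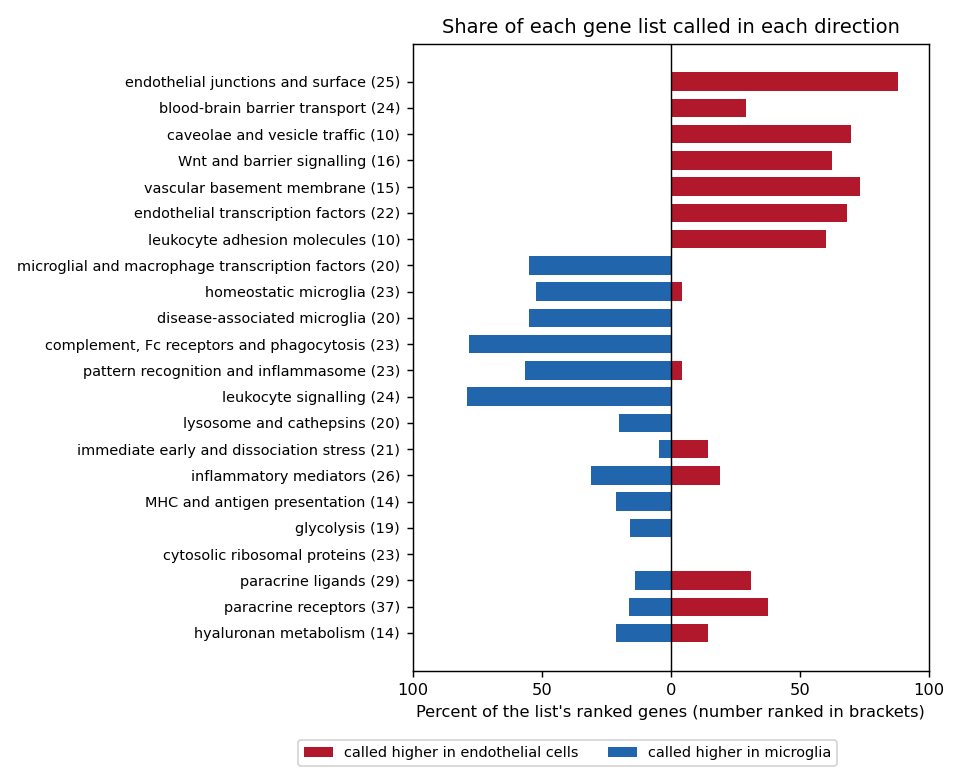
Percent of each list's ranked genes (number ranked in brackets) called by rank as higher in PBS endothelial cells (bars to the right) or in PBS microglia (bars to the left). The endothelial lists reach up to 22 of 25 genes, the microglial lists up to 19 of 24, and the ribosomal protein list has no call.

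Inflammatory mediators were shared out between the types rather than confined to 1 of them. Of 26 genes 5 were called in endothelial cells and 8 in microglia, against 7.71% and 6.0% of all ranked genes. In microglia the interleukin Il1a stood at 519 and 691 CPM and Il1b at 93.2 and 129 CPM, both listed at 0 in endothelial cells. Tnf stood at 134 and 170.3 CPM against 7.19, 4.01 and 4.38 CPM. The chemokines Ccl3 and Ccl4 stood at 3146 and 5646 CPM and 2302 and 3779.7 CPM in microglia against 0.786, 4.93 and 11.42 CPM and 0.113, 0.161 and 0.104 CPM in endothelial cells. On the endothelial side Csf3, the granulocyte growth factor, stood at 1655, 1408 and 842 CPM against 0.0349 and 6.08 CPM. Il6 stood at 118, 472 and 361 CPM against 42.9 and 7.43 CPM. The endothelial nitric oxide synthase Nos3 stood at 606, 593 and 473 CPM against 0. Cxcl1, which draws neutrophils, stood at 1470.2, 2123 and 1340.3 CPM against 77.8 and 108 CPM and was called by size only. The prostaglandin synthase Ptgs2 was high in both, at 820.4, 883 and 647 CPM and 384 and 325 CPM, whereas its relative Ptgs1 was called in microglia, at 71.3 and 129.6 CPM against 0, 4.04 and 0 CPM.

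Most immediate early and stress genes were not called by rank, and several leaned to endothelial cells by size. Of 21 genes 3 were called in endothelial cells (Fosl2, Nr4a1 and Hspb1), 1 in microglia (Egr2) and 17 in neither. Over all ranked genes the called shares were 7.71% and 6.0%. The median difference of the list was 0.46 points. By size the calls numbered 4 and 1, against 11.3% and 6.53% of all ranked genes. The median log2 difference of the list was 0.91 in favour of endothelial cells. In the exosome libraries 8 of the 21 were higher in all endothelial than in all microglial libraries, and 1 was lower, against 7.24% and 6.77% of all ranked genes. Fosl1, a partner of Jun, stood at 656, 738 and 749 CPM against 66.5 and 117 CPM, 7.77-fold higher, and was called by size only. Jun stood at 1728, 1169 and 1568 CPM in endothelial cells and 692 and 755 CPM in microglia, and Dusp1 at 3799.9, 3269 and 3520.5 CPM and 1268 and 1550.1 CPM. Hspb1, a small heat shock protein, stood at 2809.7, 1312 and 2104 CPM against 7.95 and 11.3 CPM. Hspa1a, an inducible heat shock gene with a near-identical copy in Hspa1b, varied among endothelial libraries, at 2937, 356 and 1601 CPM. Hmox1, the haem-degrading enzyme, and Sqstm1, an autophagy receptor, were among the 10 highest ranked genes of both cell types, with Hmox1 at 10045, 10867 and 12185 CPM in endothelial cells and 8432 and 6306 CPM in microglia. The part of enzyme digestion or slice culture in these levels was not tested, since all 21 libraries shared both.

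Genes of general metabolism were mostly not called, with exceptions at single enzymes. None of 23 ribosomal protein genes was called in either direction by either rule, and their median difference was 1.22 points in favour of microglia. Of 19 ranked glycolysis genes 3 were called, all in microglia, where 6.0% of all ranked genes were called. The other 16 were not called. Hk2 and Hk3, which encode hexokinases, stood at 128 and 140.3 CPM and 694 and 572 CPM in microglia. In endothelial cells Hk2 was listed at 0 and Hk3 stood at 0, 1.17 and 0 CPM. Hk1, the other hexokinase on the list, stood at 244, 255 and 244 CPM in endothelial cells and 121 and 123 CPM in microglia. Class I antigen presentation genes were not called, with H2-D1 at 2712, 3703 and 1082 CPM and 2218 and 4927 CPM. The 3 calls of that list were class II genes: Cd74 stood at 57.8 and 196 CPM, H2-Ab1 at 34.8 and 140.3 CPM and H2-Aa at 5.08 and 47.4 CPM in microglia, with the higher value in library B each time.

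Ligands and receptors were called more often in endothelial cells than in microglia. Of 29 ranked ligands 9 were called in endothelial cells and 4 in microglia, and of 37 ranked receptors 14 and 6. Over all ranked genes the shares were 7.71% and 6.0%, which also lean to endothelial cells. The balance depends on the genes listed, which include vessel genes such as Angpt2, Dll4, Tek and Kdr. Fractalkine, Cx3cl1, stood at 1013, 718 and 854 CPM in endothelial cells against 0.0348 and 0.0299 CPM, while its receptor Cx3cr1 stood at 1.92 and 1.1 CPM in microglia and was not called. The Csf1r ligand Csf1 was present in both types, at 234, 139 and 199.7 CPM and 67 and 123 CPM. The second Csf1r ligand, Il34, stood at 5, 7.71 and 6.81 CPM in endothelial cells and 0 in microglia. The integrin chain Itgb2, part of the receptors for Icam1, stood at 162 and 92.1 CPM in microglia and at 0 in endothelial cells.

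Vessel growth pairs lay mostly within endothelial cells. Angpt2, a ligand of Tek released by activated endothelium, stood at 4679, 3654 and 4474 CPM against 0.0348 and 4.02 CPM. The Notch ligand Dll4 stood at 1311, 998 and 1095 CPM, with Notch4 at 530.5, 409 and 407 CPM and Notch1 at 674, 519 and 514 CPM. In microglia Notch4 was listed at 0 and Notch1 stood at 22.4 and 29.8 CPM. Apln and its receptor Aplnr stood at 143, 234 and 107 CPM and 68.6, 71.1 and 84.1 CPM in endothelial cells and at 0 in microglia. Cxcl12 and its receptors Cxcr4 and Ackr3 stood at 908, 321 and 544 CPM, 127, 149 and 110.0 CPM and 196, 215 and 179.6 CPM. Vegfa was not called, at 42.4 and 44.4 CPM in microglia and 16, 8.33 and 16.1 CPM in endothelial cells, and Pdgfb, the endothelial signal to pericytes, at 29.6, 13.4 and 27.1 CPM, was called by size only.

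In the other direction, oncostatin M (Osm) stood at 242 and 395 CPM in microglia and 0, 0.0533 and 0 CPM in endothelial cells. Its receptor Osmr stood at 52.4, 65.4 and 49.6 CPM in endothelial cells and was listed at 0 in microglia. The Tnf receptor Tnfrsf1a ranked above 86 in all 5 libraries and Il6st, the shared chain of the Il6 and Osm receptors, did too. The receptor of the Il1 ligands, Il1r1, was low and uneven, at 5.38, 17.3 and 0.611 CPM in endothelial cells and 7.33 and 0 CPM in microglia. The purinergic receptors P2rx7 and P2rx4 were called in microglia, at 322 and 405 CPM and 206 and 130.1 CPM. Transcript levels of a pair say nothing of protein or contact.

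**Figure D5:**
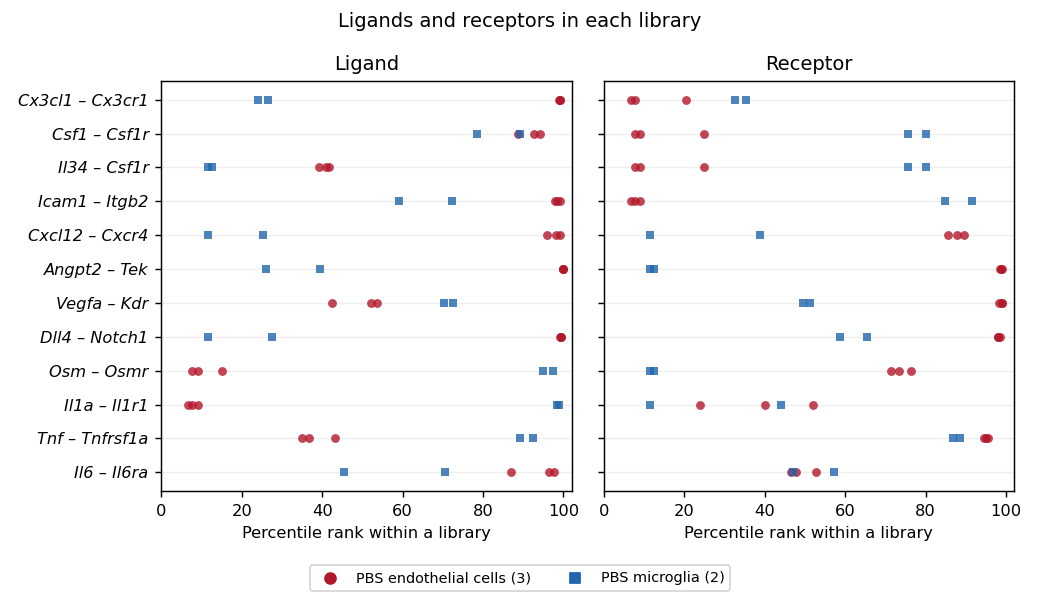
Percentile rank of 12 ligands (left) and their receptors (right) in each PBS endothelial library (circles) and PBS microglial library (squares). Cx3cl1, Angpt2 and Dll4 rank above 98 in endothelial libraries, Osm and Il1a above 94 in microglia, and Cx3cr1 ranks at most 35.3 in any library.

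Hyaluronan genes were looked at because CEMIP, named in the title of the study, binds hyaluronan and takes part in its breakdown. Of 14 ranked genes 2 were called in endothelial cells and 3 in microglia, against 7.71% and 6.0% of all ranked genes. Cemip stood at 0, 0.053 and 2.49 CPM in endothelial cells and was listed at 0 in both PBS microglial libraries. Its relative Cemip2 stood at 109, 97.6 and 135 CPM in endothelial cells against 20.7 and 0 CPM. The hyaluronan receptor Cd44 stood at 277 and 289 CPM in microglia against 5.42, 8.88 and 8.17 CPM, and the lysosomal hyaluronidase Hyal1 at 45.1 and 36.2 CPM against 8.77, 8.03 and 6.71 CPM. Among the synthases, Has1 was low and uneven, at 0.929, 0 and 4.4 CPM in endothelial cells and 0 and 5.1 CPM in microglia. Has2 stood at 0, 1.01 and 0.0342 CPM and 0.0347 and 0 CPM, Has3 at 0, 0 and 0.0682 CPM and 0, and none of these was called.

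The direction of the calls was then looked up in the exosome libraries, which the calls had not used: 7 of endothelial cells and 9 of microglia. Of the 1064 endothelial calls 613 (57.6%) were higher in all 7 endothelial than in all 9 microglial libraries, against 998 (7.24%) of all ranked genes. Of the 828 microglial calls 409 (49.4%) separated the other way, against 934 (6.77%) of all. No called gene separated in the opposite direction, and the mean lay on the opposite side for 49 endothelial and 24 microglial calls. Pecam1 and Cldn5 stood at 1611 CPM or more and 2017 CPM or more in all 7 exosome endothelial libraries. Spi1 ranged from 307 to 361 CPM in exosome microglia and from 0 to 15.9 CPM in exosome endothelial cells, where 2 of the 7 libraries were above the floor.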

How the data were processed

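RNA-seq of sorted mouse cells was deposited as 2 tables, 1 per cell type, of log2 values that the authors had variance-stabilised, as the form of the values shows. The submitters' processing notes name the build GRCm38.p6 and, without their roles, DESeq2 1.18.1, Salmon 0.10.0, Trimmomatic 0.38 and FastQC 0.11.7. The authors' deposited tables of test results also hold mean normalised counts (a signal) over the libraries of a cell type. The tables joined 20555 genes, 20537 with a symbol from RefSeq, and 3 of the 24 labelled samples were not analysed here.

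Counts were recovered from the log2 values. For endothelial cells a closed form met the authors' means of 362 genes at a ratio of 1. For microglia a curve was fitted to the authors' means of 238 genes and to values of 1 to 5 reads, with a median error of 0.0504%, a largest error of 1.68% and, for genes held out, 8.60%. Below a mean of 54.27 the curve rests on the read steps alone. Recovered values of 2 to 20 reads were whole within 0.05 in 67.8 to 84.1% of endothelial and 54.3 to 60.8% of microglial cases, so levels are estimates and no count test was run.

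Ranks were taken within each library, ties sharing their mean rank, and they do not depend on these curves. No test compared the types, since each is 1 table, and 3 libraries against 2 could not give an exact permutation p below 0.1. Where a group was at 0, folds are lower bounds against 3 reads per library. Python 3.11.15, numpy 2.4.6, pandas 2.3.3 and SciPy 1.17.1 were used. The call rule was also run on simulated libraries in which both types shared the endothelial means except at chosen genes. That setting is simpler than these data, so it cannot tell how many of the calls here are right.

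Named genes were the 4 markers, the sorting antigens, up to 6 genes per list with the largest difference in the main direction and 3 in the other, the 10 highest of each type, the 10 highest among those at 0 in the other type, the ligand and receptor pairs, and list members needed for a count. Other genes were chosen after their values were seen. Members and lists were chosen with earlier results of these data known. Some list members are counted but not reported here by name.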

Additional observations from a re-analysis of the deposited data

How the results depend on the processing

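Counts of called genes depended mostly on the size demanded. With 10 points, 2296 genes were called in endothelial cells and 2393 in microglia, and with 40 points 543 and 362. Ranking only genes above the floor in all 5 libraries gave 697 endothelial and 591 microglial calls, of which 325 and 326 were also called when all 13794 genes were ranked. Which genes are called thus depends on this choice. Calls at 0 in any of the 5 libraries, such as Pecam1 and Cldn5, are not ranked under it. Among them are the 451 endothelial and 212 microglial calls at 0 in all libraries of the other type. The cause of the changes among genes still ranked was not tested. With log2(CPM + 10) and means 2 apart, 677 and 363 were called. Ranking all genes, dropping the demand on the floor and log2(CPM + 1) kept both counts within 1.5 times, but not always the same genes. With all genes ranked, 1129 endothelial and 657 microglial genes were called. Of the 1064 and 828 main calls, 887 and 603 were among them. Leaving out 1 library gave 1089 to 1228 endothelial and 838 to 1064 microglial calls. Rank differences between letters A and B in endothelial cells and in microglia correlated at 0.04 across genes. With 1 such difference per type, this cannot tell whether a letter marks shared animals, cultures or sorts. With the letter as a replicate block 1092 and 841 genes were called, 1011 and 771 of them also called without it. None of 2781 alternative values of the named genes reversed direction. Many of these genes were picked for large differences in the same libraries, so this is not an independent check. With 2 microglial libraries, the spread of that type is poorly known.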
